A study of Mus musculus with 4 samples.

Results

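The 10 genes described here, measured in cardiomyocytes of sham-operated mice and of mice with a constricted aorta (TAC), are the Toll-like receptors Tlr2, Tlr3, Tlr4, Tlr5, Tlr7 and Tlr9, the co-receptor Ly96, the adaptors Myd88 and Ticam1 and the kinase Irak4. They were taken by symbol from the 22322 genes of the count files, and all 10 were found. They were chosen by the change of Tlr4 between sham and TAC in these same libraries, against leukocyte genes that lay lower, so that their difference between the groups is a description and carries no test.

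Toll-like receptors (TLRs) are membrane proteins that recognise microbial products and molecules released from damaged cells. They signal through the adaptor Myd88, which recruits kinases of the IRAK family, or through the adaptor Ticam1 (also called TRIF), which acts through Traf3, Tbk1 and Ripk1. Both routes lead to NF-kappaB and interferon regulatory factors, which switch on cytokine and chemokine genes. Tlr4 senses lipopolysaccharide together with the co-receptor Ly96 (MD-2) and is the receptor that signals through both adaptors. In the heart, TLRs are found on cardiomyocytes as well as on resident macrophages, endothelial cells and fibroblasts.

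The data were RNA-seq profiles of mouse cardiomyocytes, with 2 libraries from sham-operated mice and 2 from mice that had undergone transverse aortic constriction (TAC), in which narrowing of the aortic arch puts the left ventricle under a pressure load. Where 4 values are given for a gene or a list, they are those of sham 1, sham 2, TAC 1 and TAC 2, in that order. The mice were male, were operated on at 2 months of age and were followed to 14 weeks, and no genotype or strain was given for either group. Cardiomyocytes were isolated by Langendorff perfusion, with 1 heart divided into 4 tubes, and 1 tube per library was used for RNA. The libraries held between 24237777 (TAC 2) and 32118323 (TAC 1) counts, of which mitochondrially encoded genes took 40.35% and 47.42%, and 39.84% and 40.85% in sham 1 and sham 2. The labelled cell type was checked against 12 cardiomyocyte markers, which summed to between 85820 and 95101 CPM (counts scaled to the size of the library) in every library, and 0 of the 12 were called in edgeR at an adjusted p under 0.05 (5 at an unadjusted p under 0.05, and 4 higher and 1 lower in DESeq2).

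RefSeq promoters (GRCm38.p6, from 250 bases before to 50 bases after the start of the gene) were listed for 7 of the 10 genes and not for Tlr4, Tlr7 and Ly96. The promoters of Tlr3, Myd88 and Ticam1 are shown because these 3 genes, with Tlr4, had the highest levels per length of the 10. The capitals mark a match on either strand to 1 of 4 short motifs, GGGANTTTC (NF-kappaB), GAAANNGAA (interferon regulatory factors), TGACTCA (AP-1) and GAGGAA (PU.1). The windows are chr8:45410331-45410630 for Tlr3, chr9:119339969-119340268 for Myd88 and chr17:56276718-56277017 for Ticam1, all on the minus strand and written 5′ to 3′. The starts are those of RefSeq, and for Tlr3 and Myd88 the windows lie wholly inside the longer GENCODE spans of the genes given below, downstream of their outermost starts.
Tlr3: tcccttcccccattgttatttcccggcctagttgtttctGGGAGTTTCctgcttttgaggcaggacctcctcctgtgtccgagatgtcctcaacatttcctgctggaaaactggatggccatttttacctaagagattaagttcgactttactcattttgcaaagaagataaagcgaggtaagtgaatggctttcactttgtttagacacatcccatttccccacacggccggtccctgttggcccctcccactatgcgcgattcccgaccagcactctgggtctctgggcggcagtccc
Myd88: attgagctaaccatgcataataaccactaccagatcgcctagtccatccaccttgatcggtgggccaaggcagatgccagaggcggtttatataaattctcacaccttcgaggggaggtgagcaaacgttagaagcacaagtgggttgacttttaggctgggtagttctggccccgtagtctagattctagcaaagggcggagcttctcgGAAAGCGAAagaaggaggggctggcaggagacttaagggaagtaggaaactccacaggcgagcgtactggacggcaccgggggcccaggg
Ticam1: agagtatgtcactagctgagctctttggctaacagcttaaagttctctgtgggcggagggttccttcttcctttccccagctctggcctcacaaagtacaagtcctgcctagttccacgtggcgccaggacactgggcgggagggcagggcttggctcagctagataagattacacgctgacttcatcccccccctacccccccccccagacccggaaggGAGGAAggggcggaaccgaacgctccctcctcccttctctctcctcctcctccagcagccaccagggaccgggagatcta

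Each of these 3 windows held 1 match, so that no matches overlapped. In Tlr3 it was the NF-kappaB motif, 211 bases before the start, a motif that 1.11% of all 32851 mouse promoters of the same length hold. In Myd88 it was the motif of interferon regulatory factors, 40 bases before the start, held by 8.56% of all promoters. In Ticam1 it was the PU.1 motif, 30 bases before the start, held by 28.3% of all promoters. Of the other 4 promoters, that of Tlr9 held the AP-1 motif, which 5.2% of all promoters hold, and 2 PU.1 matches, and those of Tlr2, Tlr5 and Irak4 held none of the 4. A match is a run of letters and does not show that a factor binds there.

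In sham cardiomyocytes the adaptors Myd88 and Ticam1 and the receptors Tlr4 and Tlr3 were the best represented of these genes. Levels are compared between genes on the deposited FPKM scale (fragments scaled by transcript length and sequencing depth), which takes the length of each gene into account. Myd88 had a mean FPKM of 3.43 ± 0.651 (SD, n = 2), Tlr4 of 3.36 ± 0.834, Ticam1 of 2.44 ± 0.467 and Tlr3 of 2.27 ± 0.255, and each neighbouring pair among these 4 overlapped between the 2 sham libraries. Below them stood Ly96 (1.54 ± 0.318), Tlr2 (0.9 ± 0.141), Irak4 (0.665 ± 0.0212) and Tlr7 (0.44 ± 0.099), each apart from its neighbours in both libraries. Tlr5 (0.115 ± 0.0354) and Tlr9 (0.085 ± 0.0636) came last and overlapped each other.

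In TAC cardiomyocytes Tlr4 stood first and apart from the next gene, with a mean FPKM of 6.72 ± 0.672 (SD, n = 2). Myd88 (3.01 ± 0.24) and Ticam1 (2.73 ± 0.368) overlapped each other, as did Tlr3 (1.86 ± 0.29) and Ly96 (1.51 ± 0.537). Tlr2 and Irak4 overlapped, and so did Tlr7 with Tlr5 and Tlr5 with Tlr9. The order of these lower genes was the same as in sham, from Tlr2 (0.465 ± 0.191) over Irak4 (0.395 ± 0.0495), Tlr7 (0.19 ± 0.17) and Tlr5 (0.045 ± 0.0495) to Tlr9 (0.025 ± 0.0212). Among all genes with a count above 0 in the library, Tlr4 stood at the FPKM percentile 56.2 and 49.9 in the sham and 72.6 and 67.8 in the TAC libraries.

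**Figure D1:**
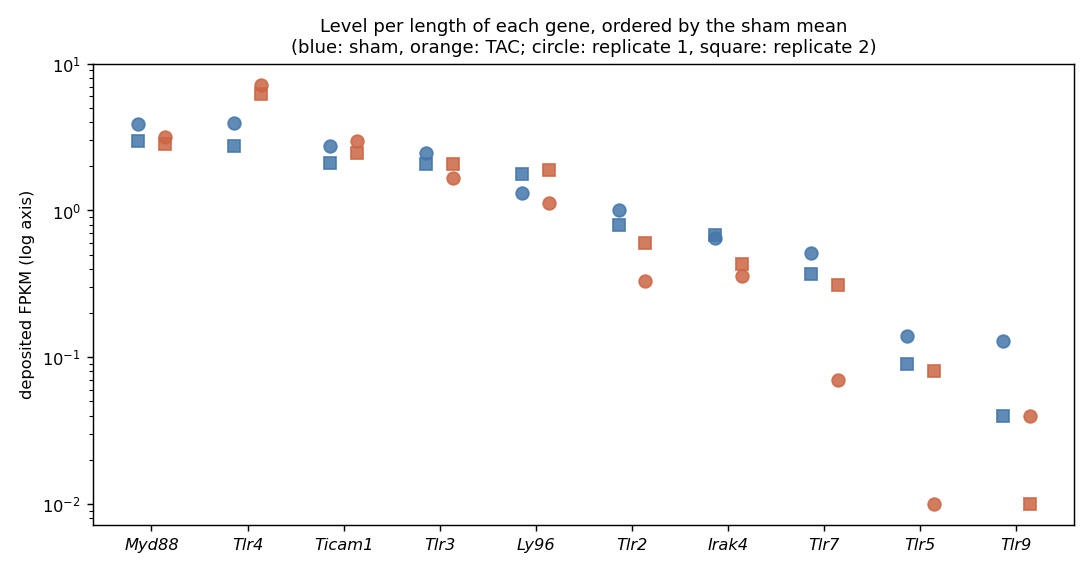
Deposited FPKM of the 10 genes in each library on a log axis, ordered by the sham mean, with sham in blue, TAC in orange, replicate 1 as a circle and replicate 2 as a square. Tlr4 was the gene whose TAC libraries (7.2 and 6.25) lay above both sham libraries (3.95 and 2.77), while Tlr5 and Tlr9 lay at or below 0.14 in every library.

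Tlr4 took a larger share of the receptor transcripts in TAC than in sham, which restates the rise it was chosen for and carries no test. Over the 12 mouse TLR genes in the files, the FPKM values summed to 8.82 and 7.18 in the sham and 9.47 and 9.73 in the TAC libraries. Tlr4 made up 44.8% and 38.6% of this sum in the sham libraries and 76.0% and 64.2% in the TAC libraries. The share of Tlr3, the next receptor, was 27.8% and 29.1% in sham and 17.5% and 21.3% in TAC. A larger Tlr4 value in the sum lowers this share by itself, and the FPKM of Tlr3 was 2.45, 2.09, 1.66 and 2.07. The ratio of Tlr4 to its co-receptor Ly96 on the FPKM scale was 2.99 and 1.56 in the sham and 6.37 and 3.31 in the TAC libraries, so that sham 1 and TAC 2 were close and the low sham 2 and high TAC 1 values set most of the distance.

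The counts were then compared between the groups gene by gene. CPM values below are scaled by edgeR's TMM factors, fold changes are TAC over sham on the log2 scale from edgeR's quasi-likelihood fit, and a gene is called where its Benjamini-Hochberg adjusted p over all tested genes is under 0.05. Of the 10 genes, 8 passed the low-count filter, and Tlr5 and Tlr9 did not. Of those 8, 1 was called higher in TAC, which was Tlr4, where 2.58% of all 12499 tested genes were, and 0 were called lower, where 2.43% of all were (1, Tlr2, at an unadjusted p under 0.05, and 0 in DESeq2). Both TAC libraries lay above both sham libraries for 1 of the 8 (29.8% of all tested genes), and below both for 4, namely Tlr2, Tlr3, Tlr7 and Irak4 (30.3% of all). Nothing is read from these counts, since the genes were chosen on this contrast. The median log2 fold change was -0.11 over the 8 genes and -0.01 over all tested genes. Each fit without a library filtered the genes anew. Without sham 2 the median was -0.40 and without TAC 2 -0.46, over sets that also held Tlr5 and Tlr9. Medians of other lists without a library can likewise cover other genes than the full fit.

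**Figure D2:**
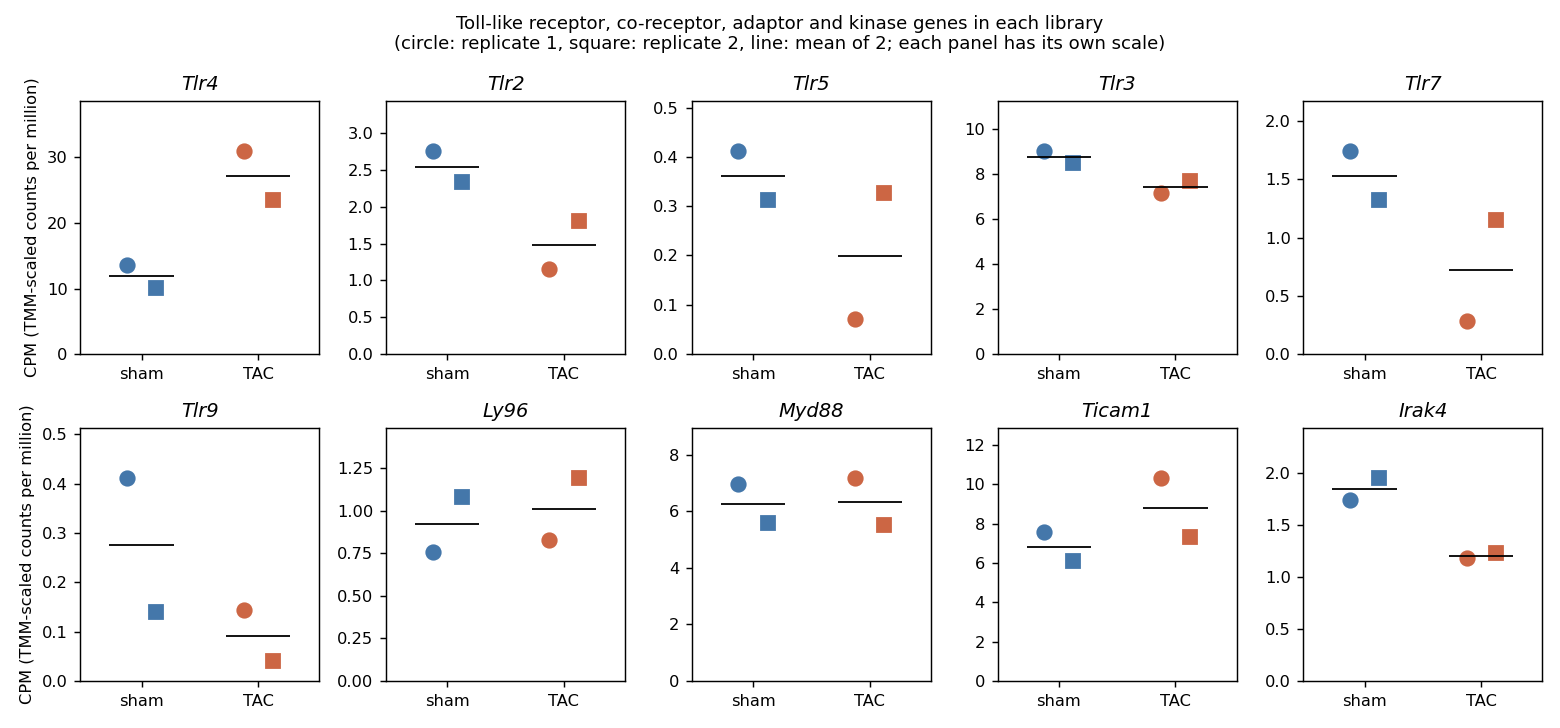
TMM-scaled CPM of the 10 genes in each library, with the group mean of 2 libraries as a line, replicate 1 as a circle, replicate 2 as a square and a separate scale from 0 for each gene. Tlr4 is the gene whose 2 TAC values lie above both sham values, and Tlr2, Tlr3, Tlr7 and Irak4 are those whose TAC values lie below both.

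Among the cell-surface receptors, Tlr4 (chr4:66827584-66930284, plus strand) had 431 and 291 counts in sham and 861 and 575 in TAC. This came to 13.6 and 10.1 CPM in sham and 30.9 and 23.5 CPM in TAC. The lower of the TAC libraries thus stood above the higher of the sham libraries, and the log2 fold change was 1.20 ± 0.18 (SE), a fold of 2.29. Leaving out 1 library at a time gave log2 fold changes between 0.98 (without TAC 1) and 1.43 (without sham 1). Scaling by total counts, which moved the median of all genes to -0.20, gave 0.99, and limma on log2(FPKM + 1) gave 0.84 and lost the call. The 2 sham libraries differed by 0.43 and the TAC libraries by 0.39 on the log2 scale.

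Tlr2 (chr3:83836272-83841767, minus strand), which recognises bacterial lipoproteins as a partner of Tlr1 or Tlr6, ran the other way. Its counts were 87 and 67 in the sham and 32 and 44 in the TAC libraries, or 2.75, 2.33, 1.15 and 1.8 CPM. Both TAC libraries were below both sham libraries, with a log2 fold change of -0.79 ± 0.31 (SE) that was -0.50 when TAC 1 was left out. Tlr5 (chr1:182954788-182976044, plus strand), the flagellin receptor, had 13, 9, 2 and 8 counts in the same order of libraries. On the CPM scale TAC 2 (0.327) lay between the sham libraries (0.411 and 0.313), and Tlr5 did not pass the filter and was not tested. Other settings that kept it gave log2 fold changes from -2.27 to -0.15.

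Of the endosomal receptors, which recognise nucleic acids, Tlr3 had the highest level. Tlr3 (chr8:45395665-45411080, minus strand), a receptor for double-stranded RNA, had 285 and 244 counts in the sham and 200 and 188 in the TAC libraries, or 9.01, 8.48, 7.17 and 7.69 CPM. The groups did not overlap but lay close, with a log2 fold change of -0.24 ± 0.14 (SE). Tlr7 (chrX:167304929-167330558, minus strand), a receptor for single-stranded RNA, had 55, 38, 8 and 28 counts, or 1.74, 1.32, 0.287 and 1.15 CPM. TAC 1 was far below the other 3 libraries, and TAC 2 was nearer to sham 2 than to TAC 1. The log2 fold change was -1.12 ± 0.57 (SE), moved to -0.42 without TAC 1, and was -2.40 and called lower without TAC 2. Tlr9 (chr9:106222598-106226883, plus strand), a receptor for unmethylated CpG DNA, had 13, 4, 4 and 1 counts, with sham 2 and TAC 1 equal.

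Ly96, the co-receptor of Tlr4 (chr1:16688051-16709611, plus strand), had 24 and 31 counts in the sham and 23 and 29 in the TAC libraries, or 0.758, 1.08, 0.825 and 1.19 CPM. The groups overlapped, unlike those of Tlr4, and the log2 fold change was 0.13 ± 0.40 (SE) and turned to -0.04 under total-count scaling. The SE was larger than the change itself, and with counts this low a change in either direction would not have been detectable unless large.

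The adaptors also overlapped between the groups. Myd88 (chr9:119335934-119341411, minus strand), used by most TLRs and by the receptors of the interleukin-1 family, had 220, 161, 200 and 135 counts in sham 1, sham 2, TAC 1 and TAC 2, or 6.95, 5.6, 7.17 and 5.52 CPM. Replicate 1 was the higher library in both groups, and the log2 fold change was 0.02 ± 0.19 (SE) and turned to -0.19 under total-count scaling. Ticam1 (chr17:56269319-56276786, minus strand), the adaptor of Tlr3 and of internalised Tlr4, had 239, 175, 287 and 179 counts, or 7.55, 6.08, 10.3 and 7.32 CPM. TAC 1 was the highest library and TAC 2 lay between the sham libraries, with a log2 fold change of 0.37 ± 0.20 (SE) that was 0.10 without TAC 1 and 0.60 without TAC 2.

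Irak4 (chr15:94543643-94581815, plus strand), the kinase that Myd88 recruits first, had 55, 56, 33 and 30 counts, or 1.74, 1.95, 1.18 and 1.23 CPM. Both TAC libraries were below both sham libraries, with a log2 fold change of -0.61 ± 0.30 (SE). Exons of Irak4 overlap those of Twf1 on the opposite strand, and exons of Myd88 overlap those of Acaa1a. Exons of Tlr3 overlap those of the antisense gene Gm45542, for which no counts were given. The sources used here do not say whether counting used strand, so that reads of each pair cannot be told apart. Twf1 stood at 9.61, 7.85, 6.99 and 8.59 CPM and Acaa1a at 44.2, 42.3, 47.2 and 44.5 CPM in sham 1, sham 2, TAC 1 and TAC 2. All 10 genes had whole-number expected counts in every library, whereas the files also hold fractional values for other genes.

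The rest of the pathway was described with 73 further genes, of which 53 were tested. In edgeR with Benjamini-Hochberg adjustment, 1 was called higher (Tnip1) and 2 lower (Cxcl1 and Nfkbiz), beside the 2.58% and 2.43% of all genes. Their median log2 fold change was -0.27, and 41 of the 53 were below 0. Among all tested genes 50.9% were below 0 and 27.5% were at an unadjusted p under 0.05, and the counts by role below stand beside these shares. Without the target genes the median of the other 46 was -0.16.

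**Figure D3:**
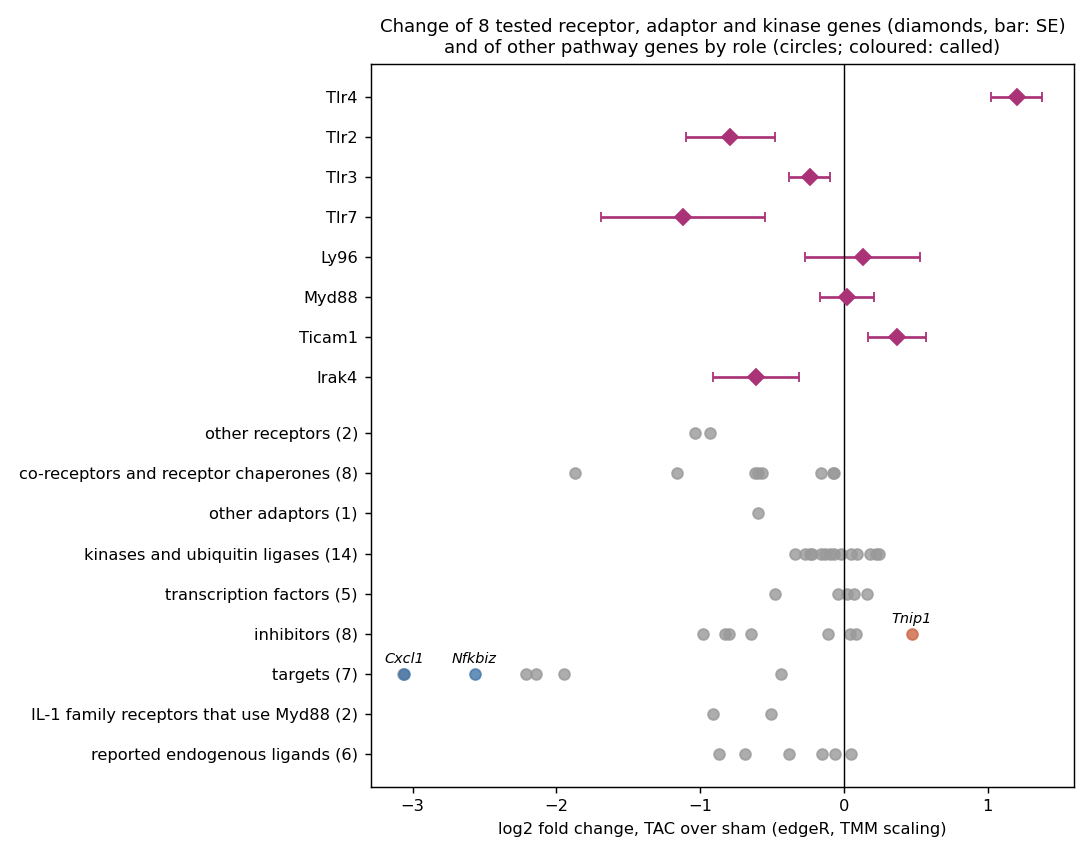
Log2 fold change, TAC over sham, from edgeR for the 8 tested receptor, adaptor and kinase genes (diamonds with SE bars) and for the other tested pathway genes grouped by role, with the number tested in brackets. Tlr4 (1.20) lies to the right of every other gene shown, and the target genes have the lowest median of the roles (-2.21).

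The remaining receptors, their helpers and adaptors gave 0 calls in edgeR with all 4 libraries. Tlr8 had the highest mean FPKM of the other receptors, while Tlr13 had similar counts (25, 22, 7 and 14). The counts of Tlr8 were 28, 18, 7 and 12 in sham 1, sham 2, TAC 1 and TAC 2. Its log2 fold change was -1.04 ± 0.51 (SE; edgeR adjusted p = 0.236), and it was -0.62 when TAC 1 and -1.57 when TAC 2 was left out. All 8 co-receptors and receptor chaperones lay below 0 (median -0.58) and 0 were called (1 at an unadjusted p under 0.05, 0 in DESeq2, 1 in limma on log2(FPKM + 1)). The median was -0.19 without sham 1, -0.14 without TAC 1 and -1.12 without TAC 2. Cd36, a fatty acid transporter that also acts with Tlr2, was by far the most abundant of them, at 1606, 1684, 1536 and 1583 CPM, with a log2 fold change of -0.08 ± 0.08. Tirap, the adaptor that brings Myd88 to Tlr2 and Tlr4, stood at 4.77, 4.07, 1.97 and 3.89 CPM with a log2 fold change of -0.60 ± 0.31 (SE; adjusted p in edgeR = 0.255), and it was -0.19 without TAC 1 (adjusted p = 0.751) and -1.16 and called lower without TAC 2 (adjusted p = 0.0363). TAC 1 was well below the other 3 libraries.

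Among the downstream genes, of 14 tested kinases and ubiquitin ligases 0 were called and 0 were at an unadjusted p under 0.05, with 0 in DESeq2, a median log2 fold change of -0.08 and a range from -0.34 to 0.24. Irak1, a kinase activated by Irak4, stood at 45.3, 49.6, 48.4 and 45.4 CPM (log2 fold change -0.02 ± 0.09). Of the 5 transcription factors 0 were called by either tool, 0 were at an unadjusted p under 0.05, their log2 fold changes ran from -0.48 to 0.16, and Nfkb1, the NF-kappaB subunit p105/p50, stood at 25.9, 22.0, 24.5 and 21.9 CPM (log2 fold change -0.04 ± 0.12).

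Of the 8 tested inhibitors of the pathway 1 was called higher and 0 lower in edgeR, with 1 higher and 4 lower at an unadjusted p under 0.05. Tnip1, which restrains NF-kappaB together with the ubiquitin-editing enzyme Tnfaip3, stood at 23.8 and 25.9 CPM in sham and 36.8 and 32.1 CPM in TAC. It was called higher with a log2 fold change of 0.47 ± 0.10 (SE; adjusted p in edgeR = 0.0474), and the call was lost without sham 1 (0.41, adjusted p = 0.128), without TAC 1 (0.37, adjusted p = 0.156) and under total-count scaling (0.28, adjusted p = 0.219). Tollip, a negative regulator of IRAK signalling, stood at 52.0, 51.7, 57.9 and 51.3 CPM and its log2 fold change of 0.08 ± 0.09 turned to -0.12 under total-count scaling. Over the 8 inhibitors the median was -0.38, with 5 below 0, and it was -0.16 without sham 1. Without sham 2, 2 inhibitors were called lower.

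Of 15 genes that TLR signalling is known to switch on, mostly cytokines and chemokines, Cxcl1 and Nfkbiz were called lower in TAC. The 15 genes summed to 47.8 and 15.8 CPM in the sham and 6.31 and 9.53 in the TAC libraries, so that both TAC libraries were below both sham libraries and sham 1 stood well above sham 2. Of the 7 that were tested 7 were below 0 and 2 were called lower (2.43% of all), with 5 in DESeq2. Their median log2 fold change of -2.21 moved to -1.11 without sham 1. The number called was 2 without sham 1, 9 without sham 2, where more of them passed the filter, 1 without TAC 1 and 2 without TAC 2. Ifnb1 and Il12b, named after their values were seen, had 0 counts in every library. Cxcl1, a neutrophil-attracting chemokine, stood at 5.53 and 2.85 CPM in sham and 0.287 and 0.736 CPM in TAC. Its log2 fold change was -3.06 ± 0.49 (SE; edgeR adjusted p = 0.0215), and without sham 1 it was -2.49 and still called. Nfkbiz, an inducible regulator of NF-kappaB target genes, stood at 18.2, 5.18, 1.76 and 2.21 CPM with a log2 fold change of -2.57 ± 0.56 (SE; adjusted p in edgeR = 0.0467). Without sham 1 it was -1.39 and still called, and without TAC 1 it was -2.41 with an adjusted p of 0.12. The cytokine gene Tnf, named after its values were seen, had 83 counts in sham 1 and 6, 7 and 3 in sham 2, TAC 1 and TAC 2 and did not pass the filter.

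Receptors of the interleukin-1 family and reported endogenous ligands of Tlr4 gave 0 calls in edgeR, with 1 and 2 genes at an unadjusted p under 0.05 and 0 and 1 called in DESeq2. Il1r1, the interleukin-1 receptor that also signals through Myd88, stood at 6.54, 4.07, 2.94 and 4.54 CPM (log2 fold change -0.51 ± 0.30, edgeR adjusted p = 0.3), and leaving out sham 1 gave -0.13, TAC 1 gave -0.23 and TAC 2 gave -0.85. Without TAC 2, 1 of these receptors was called lower. Of 6 tested ligands 5 were below 0, and the median of -0.27 was -0.05 without sham 1, -0.11 without TAC 1 and -0.64 without TAC 2. Of the ligands 2 were called lower without sham 2 and 2 without TAC 2. The most abundant and only one above 0 was Hspd1, a mitochondrial chaperone reported as a ligand when released, which stood at 276, 318, 299 and 316 CPM with a log2 fold change of 0.05 ± 0.09 that turned to -0.13 under total-count scaling.

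Markers of cells other than cardiomyocytes were present in all libraries. In bulk samples, fewer cells of a type and less RNA per cell cannot be told apart. None of 24 leukocyte markers was at 0 in all 4 libraries, and they summed to 165 and 86.1 CPM in the sham and 46.9 and 86.1 in the TAC libraries. The groups met at sham 2 and TAC 2, so that the lower TAC mean came from the high sham 1 and the low TAC 1. Of the 21 tested markers 20 lay below 0, with a median log2 fold change of -0.85, and 0 were called in edgeR (9 at an unadjusted p under 0.05, 2 in DESeq2), beside 50.9% of all tested genes below 0, 2.43% called lower and 27.5% at an unadjusted p under 0.05. The median moved to -0.36 without sham 1 and -0.48 without TAC 1, with 0 called, and to -1.21 without sham 2 and -1.34 without TAC 2, with 10 and 7 called lower. Lyz2, a lysozyme of macrophages and other myeloid cells, stood at 41.8, 22.5, 10.9 and 23.7 CPM and Csf1r, the macrophage colony-stimulating factor receptor, at 20.5, 10.7, 5.52 and 9.94 CPM. The common leukocyte antigen Ptprc stood at 5.21, 3.09, 2.47 and 2.82 CPM, the macrophage gene Adgre1 at 5.28, 2.15, 1.72 and 2.13 CPM and Cd68, a lysosomal protein of macrophages, at 2.31, 1.29, 0.753 and 1.27 CPM. The sum was equal in sham 2 and TAC 2, but single markers were not, with 10 of the 24 higher and 14 lower in TAC 2.

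Tlr4 was chosen for its rise against the leukocyte genes, so that the following values of Tlr4 beside the leukocyte sum describe that choice and carry no test. In sham 2 and TAC 2, both at 86.1 CPM of summed leukocyte markers, Tlr4 stood at 10.1 and 23.5 CPM. Expressed as a percentage of that sum, Tlr4 came to 8.27% and 11.7% in the sham and 65.8% and 27.3% in the TAC libraries. In the same pair of libraries Tlr2 stood at 2.33 and 1.8 CPM and Tlr7 at 1.32 and 1.15 CPM. The CPM values of Tlr2, Tlr3 and Tlr7 ran in the order TAC 1, TAC 2, sham 2, sham 1 from low to high. So did the summed endothelial and fibroblast markers, 9 of the 21 tested leukocyte markers and 12.3% of all tested genes. The leukocyte sum ran TAC 1, sham 2, TAC 2, sham 1, with sham 2 and TAC 2 equal to the digits given. Of the 10 genes Tlr5 alone had that order, as had 4.81% of all tested genes.

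**Figure D4:**
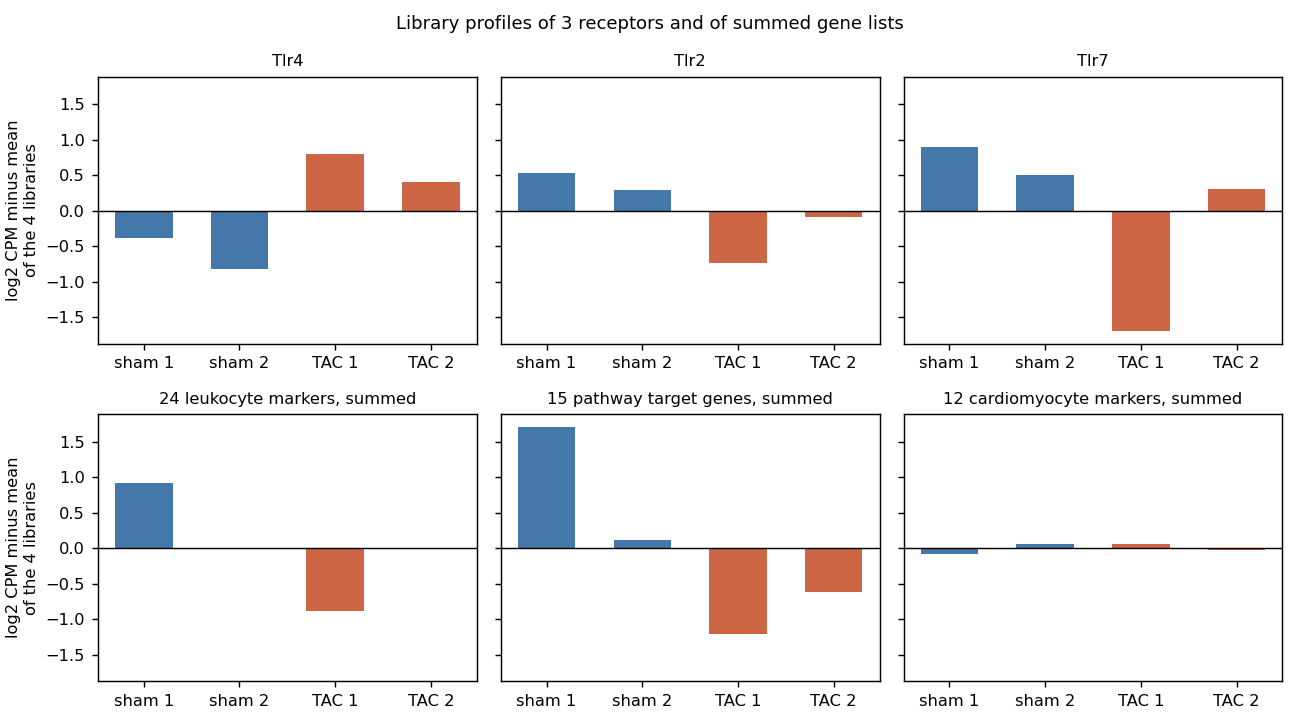
Log2 CPM of Tlr4, Tlr2 and Tlr7 and of 3 summed gene lists in each library, each minus its own mean over the 4 libraries. The leukocyte sum is equal in sham 2 and TAC 2 (86.1 CPM each), where Tlr4 stands at 10.1 and 23.5 CPM, and the sum of the pathway targets is highest in sham 1 (47.8 CPM).

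Endothelial markers (12 genes) summed to 618 and 485 CPM in sham and 296 and 408 CPM in TAC. Fibroblast markers (10 genes) summed to 284, 202, 128 and 167 CPM, and mural cell markers (9 genes) to 757, 796, 440 and 578 CPM. Large parts of the mural sum were Abcc9 (380, 406, 279 and 303 CPM) and Rgs5 (221, 207, 104 and 159 CPM). Whether Abcc9 marks mural cells alone in these samples was not tested. Both TAC libraries were below both sham libraries for each of these 3 sums, with median log2 fold changes of -0.62, -0.78 and -0.86, and 3, 2 and 2 of their genes were called lower, beside 2.43% of all tested genes, and 6, 3 and 2 in DESeq2. The medians were -0.43, -0.51 and -0.68 without sham 1, -0.79, -0.98 and -0.74 without sham 2, -0.42, -0.56 and -0.53 without TAC 1, and -0.96, -1.03 and -1.14 without TAC 2. The numbers called were 2, 1 and 4 without sham 1 and 10, 7 and 3 without sham 2. Without TAC 1 they were 1, 0 and 0, where 118 genes in all were called lower, and without TAC 2 they were 11, 6 and 8, where 776 were. The median of the cardiomyocyte markers was 0.06. What part these cells have in the values of Tlr2, Tlr3, Tlr7 or the target genes was not tested.

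The genes whose pattern over the 4 libraries was most like that of Tlr4 were looked for among tested genes that averaged 5 CPM or more, by the Euclidean distance between log2 CPM values centred over the libraries. Among the nearest were Ddit4 (distance 0.138), Slc38a2 (0.178), Ypel2 (0.178) and Dusp8 (0.188), with log2 fold changes between 1.06 and 1.21. Slc38a2, an amino acid transporter, stood at 216, 190, 509 and 417 CPM, and Ddit4, a stress-induced inhibitor of mTORC1, at 6.86, 5.53, 17.0 and 11.7 CPM. In each of these 4, as in Tlr4, replicate 1 was the higher library of both groups. The choice by distance largely fixes both this order and the size of the rise. With 4 libraries such likeness is a description only.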

How the data were processed

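RNA-seq of isolated cardiomyocytes (2 sham and 2 TAC libraries, each from 1 heart) was taken from 4 deposited tables of expected counts and FPKM per gene, whose header lines do not line up with their data columns, so that columns were read by position and checked by their values. The submitters' processing notes name Bowtie2 2.2.8, StringTie 1.3.1 and the build mm10, whereas for the counting step no program, annotation or strand setting could be found there or in the methods. The expected counts that the authors deposited were rounded, filtered with filterByExpr and tested with edgeR 4.0.16 (R 4.3.3; quasi-likelihood, TMM factors, no block, Benjamini-Hochberg adjusted p under 0.05), and the deposited FPKM values were used for levels between genes and, in limma 3.58.1, as an alternative. DESeq2 1.42.0 was a further alternative. With 2 libraries against 2 an exact two-sided permutation test cannot go below 0.333.

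The genes and the lists were chosen with earlier results of these data known. Of the other pathway genes, those called and the one with the highest mean FPKM in each role were named, and of the 5 genes most like Tlr4 in pattern, 4 are reported here. Gene positions came from GENCODE vM21 (GRCm38). The methods give 14 weeks both as time after the operation and as the age of the mice. The share of mitochondrial counts, 47.42% in TAC 1, lowers the CPM of other genes under total-count scaling.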

Additional observations from a re-analysis of the deposited data

How the results depend on the processing

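Over 19 named genes and 14 other settings, 225 of 265 log2 fold changes kept their direction and their side of the threshold, 13 lost and 2 gained a call, and 25 turned. The cause was not tested. Under total-count scaling the turned values were -0.04 for Ly96, -0.19 for Myd88, -0.12 for Tollip and -0.13 for Hspd1, and with mitochondrial genes left out of the totals -0.09 for Myd88, -0.03 for Tollip and -0.05 for Hspd1. With limma on log2(FPKM + 0.1) and log2(FPKM + 1) they were -0.06 and -0.03 for Ly96, -0.17 and -0.14 for Myd88, -0.13 and -0.12 for Tollip, and -0.15 and -0.15 for Hspd1. Leaving out 1 library gave ranges of -0.15 to 0.40 for Ly96, -0.19 to 0.19 for Myd88, -0.08 to 0.06 for Irak1, -0.15 to 0.08 for Nfkb1, -0.01 to 0.16 for Tollip and -0.05 to 0.16 for Hspd1.

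The number of the 10 genes called higher was 1, and 0 with limma at either pseudocount and at an adjusted p under 0.01. The number called lower was 0, and between 0 and 1 when 1 library was left out (1, Tlr7, without TAC 2). Of the other pathway genes 1 was called higher, and 0 with total-count scaling, with mitochondrial genes left out of the totals, with the replicate block, with limma at either pseudocount, at an adjusted p under 0.01 and with the cut-off of the study (unadjusted p under 0.05, fold over 2, FPKM over 2), and between 0 and 1 when 1 library was left out. The number called lower, 2, became 4 with total-count scaling, 1 without mitochondrial genes in the totals, 11 with no low-count filter, 4 with the replicate block, 6 with DESeq2, 0 at an adjusted p under 0.01 and 8 under 0.1, and 1 (without TAC 1) to 14 (without sham 2) when 1 library was left out.

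Over all genes, 322 called higher became 105 with total-count scaling, 188 without mitochondrial genes in the totals, 707 with no low-count filter, 68 and 69 with limma, 70 and 878 at an adjusted p under 0.01 and 0.1, 50 with the cut-off of the study, and 183 to 560 with 1 library left out. The 304 called lower became 969 with no low-count filter, 477 with DESeq2, 127 and 145 with limma, 22 and 939 at an adjusted p under 0.01 and 0.1, 53 with the cut-off of the study, and 118 to 776 with 1 library left out. The lowest counts came without TAC 1 and the highest without TAC 2. The paper describes the sequenced samples as pairs of sham and TAC mice, without saying whether replicate numbers mark the pairs. Deviations of sham 1 and TAC 1 from their group means had r = -0.242, which does not show whether libraries were paired. A crossed pairing as a block, added after seeing the data, gave 968 genes higher and 1163 lower, and 10 other pathway genes lower. The replicate block left Tlr4 called. Depth limits Tlr5 and Tlr9, with at most 13 counts in a library.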
